A study of Mus musculus with 19 samples.

Results

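Mitochondrial complex I was followed in postnatal mouse heart through the 49 genes of the expression table whose name begins with Nduf, out of 56066 genes in the table; names holding the pseudogene mark -ps were left out. Names set the membership and no measured value did, although the members were chosen with earlier results of these data known. They comprised 36 subunits encoded in the nucleus, 8 assembly factors named Ndufaf1 to Ndufaf8, Ndufa4 and its paralog Ndufa4l2, and 3 copies annotated as processed pseudogenes. Levels are in TPM, the share of a library's transcripts after division by gene length. Of these genes 47 reached at least 1 TPM in at least 3 libraries and were tested with 14812 genes in all. The other two, Ndufa11b and Ndufs6b, are processed copies that never passed 0.58 TPM. Ndufb1, a subunit, appears in the table only under the name Ndufb1-ps, at 121 to 167 TPM, and was therefore outside the rule.

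RNA was sequenced from hearts of wild-type mice (WT) and of mice with a conditional knockout of PDK1 (cKO). The groups were P1 WT (3 libraries), P7 cKO (3), P7 WT (5), P21 cKO (3) and P21 WT (4), where P gives the postnatal day. The youngest group is labelled P1 in the samples and P0 in the design text, and P1 is used here. One more P21 library, number 63, is cKO by its genotype label but lacks the KO that ends every other cKO title, and was left out. No Cre promoter, sex or strain is given, apart from an unexplained B6 in the titles of both lettered P21 WT libraries, nor which cells lost the gene. The labels do not say either whether each library came from its own animal. P-values therefore measure the spread between libraries. TPM keep no depth, so the depth of the libraries is unknown.

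Complex I oxidises NADH and passes the electrons to ubiquinone, and this drives the pumping of protons across the inner mitochondrial membrane. Its N module binds NADH, its Q module binds ubiquinone, and its proximal and distal membrane arms hold the proton channels, whose core subunits are encoded by mitochondrial DNA. Assembly factors bind intermediates of the enzyme and leave it once it is complete. The heart depends on this enzyme as it turns to oxidative metabolism after birth.

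PDK1 can stand for Pdpk1, the kinase that activates AKT, or for Pdk1, which inhibits pyruvate dehydrogenase, and the labels do not say which. Pdpk1 averaged 5.35 ± 0.344 TPM in P21 cKO hearts (SD, n = 3) and 6.86 ± 0.629 TPM in P21 WT hearts (SD, n = 4), and the groups did not overlap. By limma its difference was -0.15 (adjusted p = 0.366) on the log2 scale of TPM as deposited and -0.38 (adjusted p = 0.0160) after median-ratio scaling. At P7 its mean was 8.01 ± 0.0737 TPM in cKO hearts against 9.78 ± 1.89 TPM in WT hearts, and it did not pass on either scale. P7 WT libraries with plain-number titles stood at 8.09, 7.96 and 9.32 TPM, and the lettered ones at 11.9 and 11.63 TPM. All P7 cKO titles are plain numbers, and these libraries stood at 8.09, 7.98 and 7.95 TPM. Pdk1 averaged 34.1 ± 3.18 TPM in P21 cKO hearts and 26.5 ± 2.12 TPM in P21 WT hearts (0.36 ± 0.12, adjusted p = 0.0473, and 0.11 with adjusted p = 0.526 after scaling). Neither gene was near 0 in any cKO library, so these values check the genotype labels only in part.

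TPM are shares of a fixed total. The top 10 genes by level took up 28.5% of TPM in P1 WT, 32.0% in P7 cKO, 32.4% in P7 WT, 35.8% in P21 cKO and 40.6% in P21 WT libraries. Transcripts of the mitochondrial genome held 20.3% in P21 cKO and 23.5% in P21 WT libraries. The median of all genes tested shifted by 0.22 (log2) between P21 cKO and P21 WT, by -0.47 between P21 WT and P7 WT, by -0.48 between P21 WT and P1 WT and by -0.24 between P21 cKO and P7 cKO. Each comparison is given on TPM as deposited and after median-ratio scaling, which divides a library by its median ratio to the mean profile and brings these medians to between -0.01 and 0.01. Differences are of log2(TPM + 1), which understates those of low genes, and a gene passed at a Benjamini-Hochberg adjusted p under 0.05. Since these are bulk samples, fewer cells of a type and less RNA per cell cannot be told apart.

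One library stood apart before any group comparison. In P1 WT replicate 3 the 36 subunits summed to 18611 TPM, against 14316 and 14531 TPM in P1 WT replicates 1 and 2. Of the 36 subunits 34 were highest in replicate 3 of the 3 (94.4%), against 25.5% of all genes tested, and their median difference from the other two was 0.38 (log2). Subunits of complex III (8 of 9), complex IV (11 of 12) and complex V (12 of 15) and assembly factors (7 of 8) were also highest there, and 2 of the 7 complex I subunits of mitochondrial DNA were. Results that rest on P1 are therefore given with and without it.

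Sequence bears on how the reads of some members can be told apart, and the first case is Ndufb4, a subunit of the distal membrane arm. Ndufb4c lies on chr15:73809507-73809896 (mm10, minus strand) as a processed copy with no intron. Its 390 bases are identical at all 390 positions to bases 95 to 484 of the 971-base Ndufb4 transcript in GENCODE M21, from the start codon to the stop codon. Its first 150 bases follow, with the start codon in capitals.
Ndufb4c: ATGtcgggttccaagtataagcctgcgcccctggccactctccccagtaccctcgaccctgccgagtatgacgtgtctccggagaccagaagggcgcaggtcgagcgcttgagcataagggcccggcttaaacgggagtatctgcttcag
Reads inside the 390 bases cannot be assigned to the gene or to the copy. The table lists Ndufb4c at 584 to 707 TPM and Ndufb4 at 45.6 to 67.3 TPM over the 18 libraries, so that the copy stands about level with Ndufa12 and the gene below every other subunit. How much of either value belongs to Ndufb4 is uncertain. Put together per length of Ndufb4, the pair held 327 ± 2.65 TPM in P1 WT hearts, 322 ± 15.3 TPM in P7 cKO hearts, 326 ± 2.98 TPM in P7 WT hearts, 317 ± 16.0 TPM in P21 cKO hearts and 320 ± 18.2 TPM in P21 WT hearts (SD). The libraries of any 2 of these groups overlapped.

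The second case is Ndufs5, of the proximal membrane arm, and Ndufs5-ps, a copy on chr16:42955631-42955949 (mm10, plus strand) outside the rule. They are identical at 317 of 319 aligned positions. A stretch of 120 bases, positions 248 to 367 of the Ndufs5 transcript (chr4:123712710-123718202, minus strand) and 1 to 120 of the copy, holds both differing bases, given in capitals.
Ndufs5: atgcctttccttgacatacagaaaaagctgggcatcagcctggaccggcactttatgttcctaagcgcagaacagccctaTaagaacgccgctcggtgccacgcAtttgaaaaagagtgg
Ndufs5-ps: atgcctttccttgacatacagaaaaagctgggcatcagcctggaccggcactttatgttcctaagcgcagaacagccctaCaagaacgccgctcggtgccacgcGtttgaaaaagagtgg
Ndufs5-ps was listed at 309 TPM in P21 cKO library 55 and 368 TPM in P21 WT library 57, and at 2.2 TPM or less in the other 16 libraries. Ndufs5 itself stood at 522 TPM in library 55, with 541 and 550.3 TPM in the other P21 cKO libraries, and at 562 TPM in library 57, with 525 to 548 TPM in the other P21 WT libraries. A comparable copy, Ndufa12-ps (400 of 402 positions identical to the N module subunit Ndufa12), was listed at 19.8 to 35.7 TPM in 4 libraries of 3 groups and at 2.23 TPM or less elsewhere.

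Promoters of 250 bases before to 50 after the annotated start were found in RefSeq (GRCm38.p6) for 40 of the 49 members, 32 subunits among them. Both strands were searched for 4 motifs of factors known to act on nuclear genes of mitochondria. The NRF1 motif (GCGCA, any base, GCGC) was present in 7 of 32 subunit promoters (21.9%), 2 of 7 assembly factor promoters and 4.78% of all 27025 promoters. The YY1 motif AANATGGCG was present in 6 subunit promoters (18.8%), against 2.51% of all. The ETS motif CCGGAAG was present in 4 (12.5%, against 9.12%) and the oestrogen-related receptor motif AAGGTCA in 3 (9.38%, against 4.66%). No overlap between motifs was removed. In the 100 bases just before the outermost annotated start, 3 of 35 members held a motif, in capitals here: an ETS motif in Ndufaf1 (chr2:119662835-119662934, minus strand) and an NRF1 motif in Ndufs5 (chr4:123718203-123718302, minus strand) and Ndufa11 (chr17:56717662-56717761, plus strand).
Ndufaf1: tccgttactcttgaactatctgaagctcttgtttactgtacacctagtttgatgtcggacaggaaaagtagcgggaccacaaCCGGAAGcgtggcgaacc
Ndufs5: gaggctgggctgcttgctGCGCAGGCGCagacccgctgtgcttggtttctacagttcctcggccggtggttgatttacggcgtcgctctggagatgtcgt
Ndufa11: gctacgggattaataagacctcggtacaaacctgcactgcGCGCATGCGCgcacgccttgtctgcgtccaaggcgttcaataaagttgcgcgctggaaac
A match is a description of the letters and was not tied to a level or a change.

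The subunits were abundant and of similar level in every group. Per length, the subunit in the middle of the order averaged 415 TPM in P1 WT hearts, 442 TPM in P7 cKO hearts, 434 TPM in P7 WT hearts, 456 TPM in P21 cKO hearts and 446 TPM in P21 WT hearts. Ndufb8, in the distal membrane arm, was the most abundant subunit in each group, with a mean of 865 TPM in P1 WT, 954 TPM in P7 cKO, 906 TPM in P7 WT, 1006 TPM in P21 cKO and 1033 TPM in P21 WT hearts. Ndufb9 averaged 887 TPM over the 18 libraries, close to Ndufb8 at 952 TPM, and the libraries of these neighbours overlapped. Ndufs4, an N module subunit whose loss causes a Leigh-like disease in mice, was the lowest apart from Ndufb4, at group means of 138 to 159 TPM. Ndufa4, at first counted in complex I and now placed in complex IV, was higher than any of them, at a mean of 1579 TPM over the 18 libraries.

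The assembly factors stood far below the enzyme they build. All 8 together summed to 201 TPM in P1 WT, 213 TPM in P7 cKO, 216 TPM in P7 WT, 194 TPM in P21 cKO and 201 TPM in P21 WT hearts. Means over the 18 libraries ranged between 17.3 TPM for Ndufaf6 and 36.4 TPM for Ndufaf8. The subunit sum was 78.5 times the assembly factor sum in P1 WT, 79.3 times in P7 cKO, 77.2 times in P7 WT, 89.5 times in P21 cKO and 87.2 times in P21 WT. Between libraries of a group the median coefficient of variation of the 8 assembly factors was 17.0% in P1 WT, 5.46% in P7 cKO, 8.46% in P7 WT, 10.9% in P21 cKO and 7.12% in P21 WT. That of the 36 subunits was 15.9% in P1 WT, 4.05% in P7 cKO, 5.69% in P7 WT, 4.56% in P21 cKO and 5.49% in P21 WT. The most variable assembly factors were Ndufaf6 (25.5%) in P21 cKO, Ndufaf2 (23.9%) in P1 WT and Ndufaf7 (21.4%) in P21 cKO hearts.

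**Figure D1:**
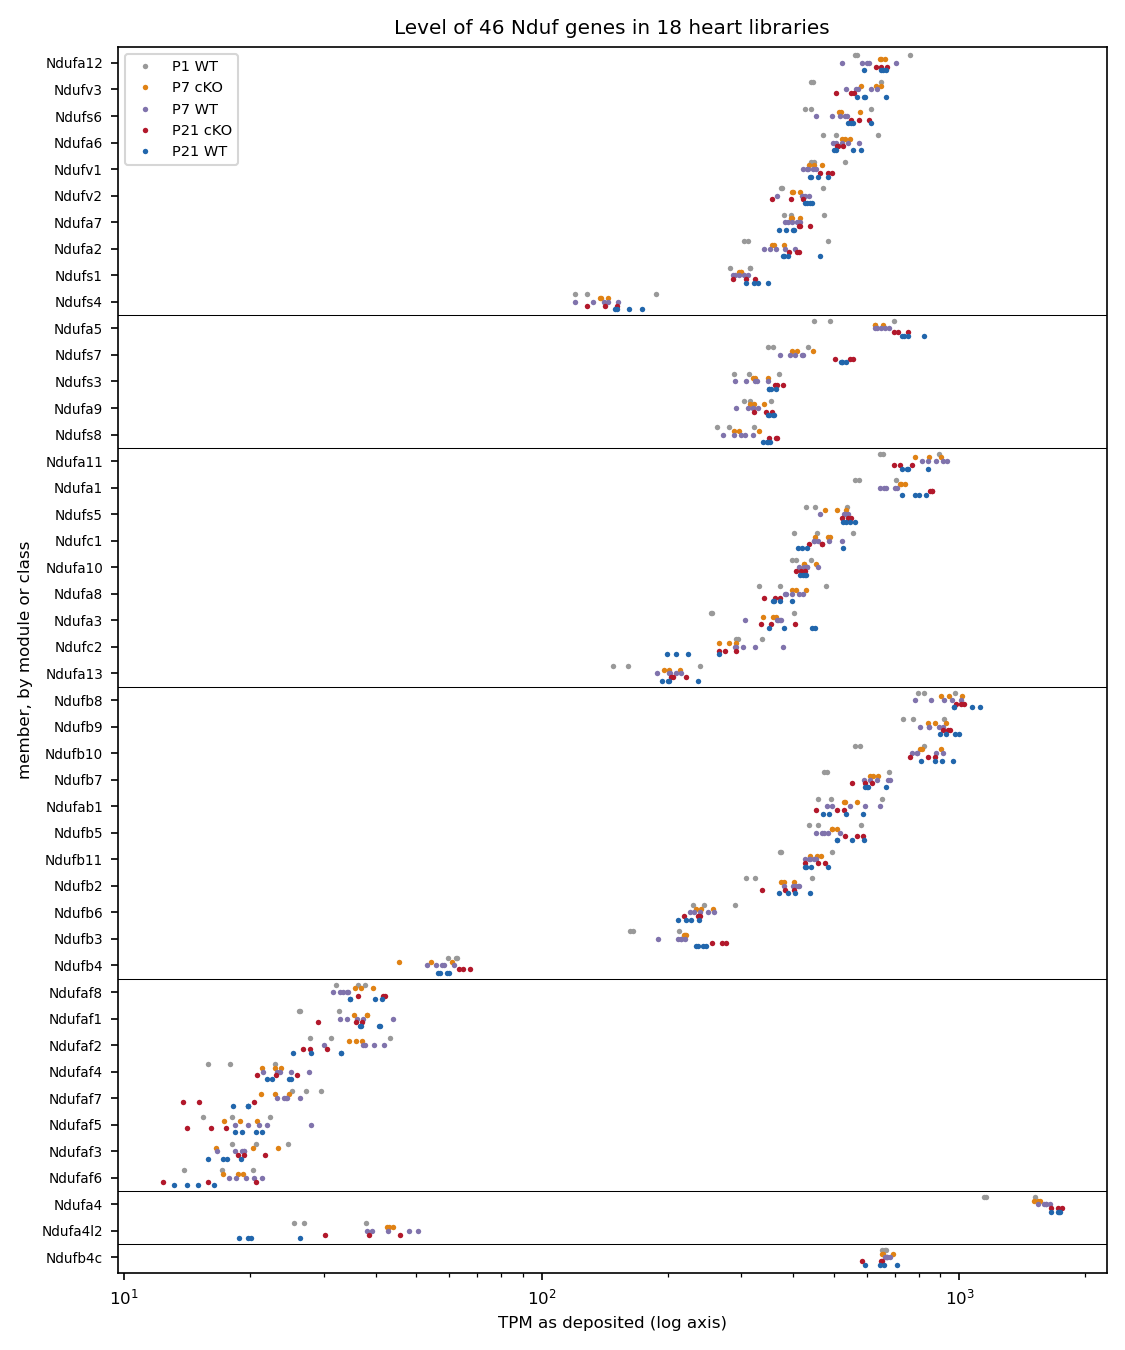
TPM as deposited (log axis) of 46 of the 47 tested Nduf genes, 1 point per library and 1 colour per group, with lines between the N module, Q module, proximal arm, distal arm, assembly factors, the Ndufa4 pair and Ndufb4c. Subunits apart from Ndufb4 lie at 120 TPM or more and assembly factors at 44.1 TPM or less, with Ndufa4l2 among the assembly factors.

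The summed level of the 36 subunits differed little between the P7 and P21 groups on TPM as deposited. P1 WT hearts held 15819 ± 2420.0 TPM (SD), a mean raised by replicate 3 at 18611 TPM. Replicates 1 and 2 held 14316 and 14531 TPM, below every P7 and P21 library, the lowest of which held 15489 TPM. At P7 the sum was 16918 ± 572 TPM in cKO hearts, against 16695 ± 789 TPM in WT hearts. At P21 it was 17331 ± 564 TPM in cKO hearts (1.73% of all TPM) and 17532 ± 792 TPM in WT hearts (1.75%), and the libraries of the genotypes overlapped. After median-ratio scaling the sums were 13525 ± 3023 in P1 WT, 15349 ± 747 in P7 cKO, 14637 ± 1415 in P7 WT, 19315 ± 394 in P21 cKO and 22905 ± 2318 in P21 WT. On that scale every P21 library lay above every P1 and P7 library, and every P21 cKO library lay below every P21 WT library.

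**Figure D2:**
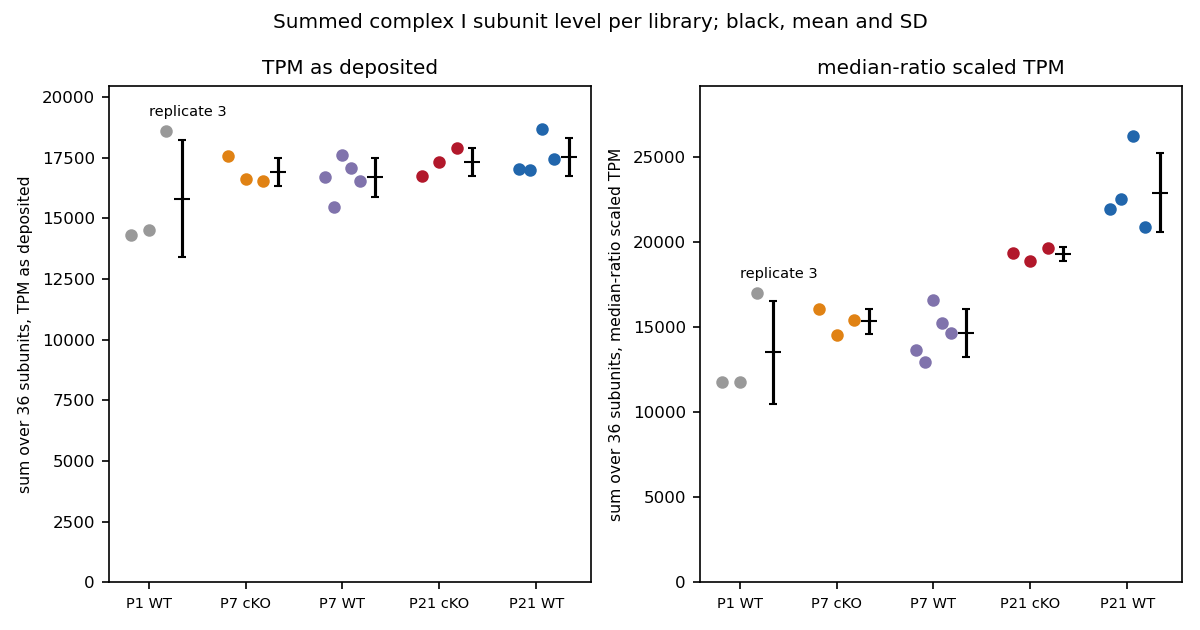
Sum over 36 complex I subunits per library (points), as TPM on the left and median-ratio scaled TPM on the right, with group mean and SD in black. On the left the P7 and P21 groups overlap at 15489 to 18681 TPM. P1 WT replicates 1 and 2 lie below them at 14316 and 14531 TPM, and replicate 3, which is marked, is at 18611 TPM. On the right P21 cKO averages 19315 and P21 WT 22905, both above P7 and P1.

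Between P7 and P21 in WT hearts, Q module subunits and a few others rose on TPM as deposited while most genes fell. Limma called 12 members higher and 5 lower, against 8.1% of all genes higher and 64.4% lower. Of the subunits 11 of 36 rose and 1 fell, with a median difference of 0.08 (log2), where the median gene stood at -0.47, and 35 of 36 lay above that median. The Q module had 5 of its 6 subunits among those that rose, the distal arm 4 of 11, and the N module and proximal arm 1 each, of 10 and 9. The Q module summed to 2929 ± 56.0 TPM in P21 WT and 2549 ± 103 TPM in P7 WT hearts (SD, n = 4 and 5).

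Ndufs7, which holds the last iron-sulfur cluster before ubiquinone, had the largest rise of a subunit. It stood at 520.03, 522, 536 and 522 TPM in P21 WT hearts, against 392, 371, 423, 403 and 419 TPM in P7 WT hearts. The lowest P21 WT library lay above the highest P7 WT library, and the difference was 0.39 ± 0.06 (log2, SE, adjusted p = 3.71e-05). Ndufs8, which carries 4Fe-4S clusters of the same chain, stood at 345, 338, 352 and 348 TPM in P21 WT hearts, against 289, 272, 321, 307 and 299 TPM in P7 WT hearts, again without overlap (0.23 ± 0.06, adjusted p = 0.00265). Ndufa9, an accessory subunit at the ubiquinone site, differed by 0.18 (adjusted p = 0.00383), Ndufs3 by 0.16 (adjusted p = 0.0285) and Ndufa5 by 0.23 (adjusted p = 0.0394). The call of Ndufa5 was lost without any 1 of 7 libraries (P21 WT 2, 3 or 57, P7 WT 3, 72, 76 or 77), with adjusted p of 0.0534 to 0.137.

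Outside the Q module, Ndufa1 of the proximal arm rose by 0.22 and Ndufb8 of the distal arm by 0.21 (adjusted p = 0.00451 and 0.00468). Ndufb3 rose by 0.20, Ndufb5 by 0.18 and Ndufb9 by 0.15, and the N module subunit Ndufs1, which carries iron-sulfur clusters, by 0.13 (adjusted p = 0.0317). The rise of Ndufb3 did not pass without P7 WT 3 (0.16, adjusted p = 0.0639), and that of Ndufb5 not without P21 WT 57, P7 WT 3, 76 or 77 (adjusted p of 0.0520 to 0.102). Ndufv1, which holds the NADH site and its flavin, differed by 0.06 and did not pass. Without P7 WT 3 the number of members called higher was 6, and without P21 WT 57 it was 7.

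Ndufc2, a proximal arm subunit, was the only subunit that fell between P7 and P21 in WT hearts. It stood at 224, 199, 265 and 209 TPM in P21 WT hearts, against 324, 292, 377, 303 and 290.4 TPM in P7 WT hearts. No P21 WT library reached a P7 WT library, and the difference was -0.49 ± 0.09 (adjusted p = 1e-04). This is close to the median gene of -0.47, and after scaling it was 0.09 and did not pass (adjusted p = 0.537).

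After median-ratio scaling almost the whole complex rose between P7 and P21 in WT hearts. Limma called 42 members higher and 1 lower, against 27.6% and 26.8% of all genes, and the median of the 36 subunits was 0.66, with -0.0039 for all genes tested. All 10 N module, 6 Q module and 11 distal arm subunits rose, and 8 of 9 in the proximal arm, with Ndufc2 the exception. Ndufs7 again had the largest value, 0.98. Among assembly factors 5 of 8 rose on this scale, among them Ndufaf8 (0.74), the partner of Ndufaf5, and Ndufaf1 (0.66), a core member of the complex that builds the membrane arm. On TPM as deposited Ndufaf8 rose (0.18), while Ndufaf7 (-0.33 ± 0.09, adjusted p = 0.00402), Ndufaf6 (-0.38, adjusted p = 0.0110) and Ndufaf2 (-0.32, adjusted p = 0.0273) fell. These 3 changed sign with scaling, to 0.23, 0.17 and 0.25, and did not pass there. With P1 WT replicate 3 also left out, Ndufaf7 (0.22, adjusted p = 0.0431) and Ndufaf2 (0.25, adjusted p = 0.0138) passed as higher, and 7 of 8 assembly factors did. Ndufaf7, a mitochondrial methyltransferase needed for complex I assembly, stood at 19.8, 19.8, 18.2 and 19.8 TPM in P21 WT hearts, against 26.4, 24.1, 23.3, 24.4 and 24.5 TPM in P7 WT hearts. The fall of Ndufaf2, a paralog of Ndufa12 that guides the N module, did not pass without P21 WT 3 or 57 or P7 WT 3 or 76 (adjusted p of 0.0576 to 0.108).

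Ndufa4l2, a paralog of Ndufa4 that hypoxia induces and that pericytes express in mouse, was lower at P21 than at P7 in WT hearts. It stood at 20.1, 18.9, 19.8 and 26.4 TPM in P21 WT hearts, against 39.3, 50.5, 38.1, 42.9 and 48.2 TPM in P7 WT hearts. The groups did not overlap, and the ratio of TPM + 1 in P21 WT over P7 WT was 0.499 (SE 0.14 in log2, adjusted p = 9.29e-06). After scaling it fell by 0.44 on the log2 scale (adjusted p = 0.0121), the only member called lower there. Markers of mural cells, which include pericytes, were called lower for 2 of 4 on TPM as deposited, against 64.4% of all genes. They summed to 206 to 293 TPM in P21 WT and 240 to 373 TPM in P7 WT hearts, with overlap.

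Markers of other cell types also moved between P7 and P21 in WT hearts on TPM as deposited. Of all genes 64.4% were called lower and 8.1% higher in this comparison. Endothelial markers, 5 of 5 called lower, summed to 253 to 352 TPM in P21 WT and 569 to 690.2 TPM in P7 WT hearts. Fibroblast markers, 4 of 5 called lower, summed to 380.0 to 495 TPM in P21 WT and 651 to 874 TPM in P7 WT hearts. P21 WT and P7 WT libraries did not overlap in these sums, nor in those of macrophage and skeletal muscle markers. Macrophage markers, 4 of 5 called higher, summed to 102 to 155 TPM in P21 WT and 55.6 to 64.8 TPM in P7 WT hearts, and skeletal muscle markers, 2 of 3 tested called higher, to 48.6 to 54.2 TPM in P21 WT and 17.5 to 26.3 TPM in P7 WT hearts. Cardiomyocyte markers, with 3 of 6 called higher and 1 lower, overlapped at 33309 to 36667 TPM in P21 WT and 30548 to 35774 TPM in P7 WT hearts. Red cell markers, 0 of 5 called, overlapped at 6225 to 16184 TPM in P21 WT and 6547 to 9990 TPM in P7 WT hearts. The part of these lists in the results between P7 and P21 was not tested.

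**Figure D3:**
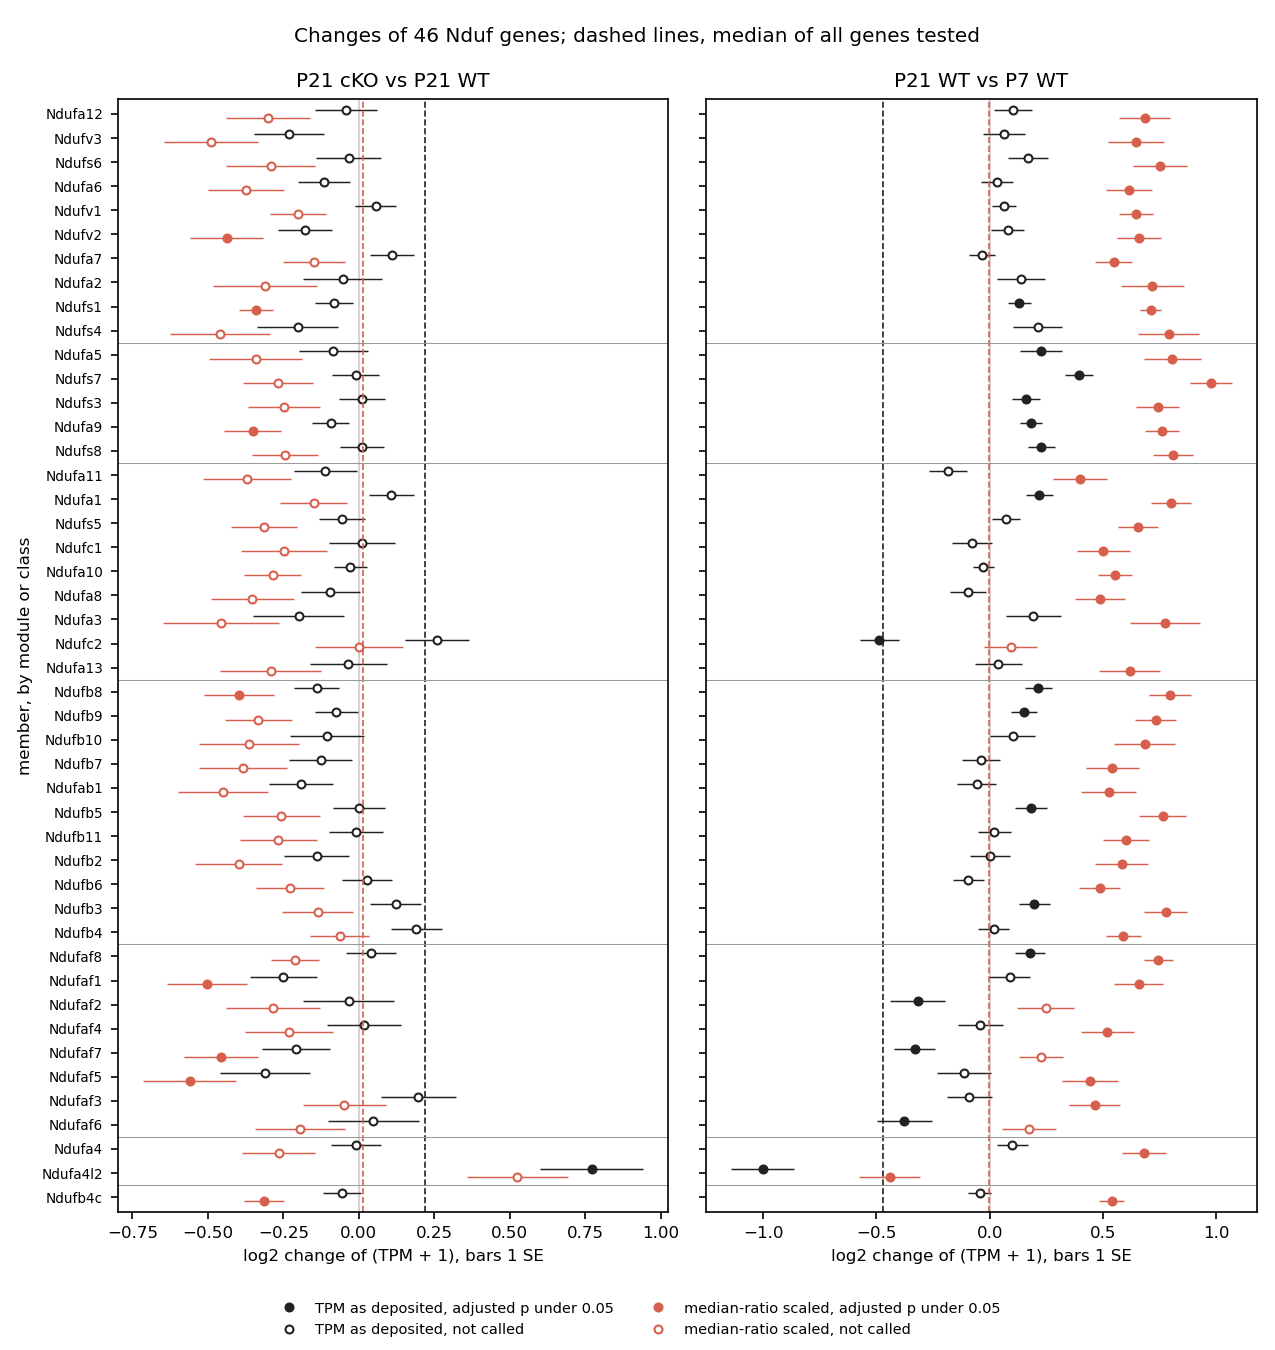
Log2 difference of (TPM + 1) with bars of 1 SE for 46 of the 47 Nduf genes tested, P21 cKO against P21 WT on the left and P21 WT against P7 WT on the right, as TPM (black) and median-ratio scaled (orange-red), filled where the adjusted p was under 0.05. Dashed lines mark the median of all genes in the same colour; on TPM 34 of the 35 subunits drawn lie left of 0.22 on the left panel and 34 of 35 lie right of -0.47 on the right panel.

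In P21 cKO hearts no subunit passed the test against P21 WT hearts on TPM as deposited, while many other genes did. Limma called 19.5% of all genes higher and 1.77% lower in P21 cKO, and 0 of 36 subunits in either direction, with 2 at an unadjusted p under 0.05. Their median difference was -0.05 (log2) and their range -0.23 to 0.26. Against the median gene of 0.22, 35 of 36 subunits were lower, the exception being Ndufc2. None of the 8 assembly factors passed by limma, with 1 at an unadjusted p under 0.05 and a median of -0.01. The lowest value of a subunit was that of Ndufv3 of the N module (-0.23, adjusted p = 0.152). Ndufs4 (-0.20, adjusted p = 0.276), Ndufab1, the mitochondrial acyl carrier protein (-0.19, adjusted p = 0.194), Ndufv1 (0.06, adjusted p = 0.564) and Ndufa4 (-0.01, adjusted p = 0.951) did not pass either. Ndufaf1 differed by -0.25 (adjusted p = 0.118) and Ndufaf5, which hydroxylates Ndufs7, by -0.31 (adjusted p = 0.136). All 18 libraries share 1 estimate of spread, and Ndufv3 passed without P1 WT replicate 3 (adjusted p = 0.0159), Ndufaf5 without P7 WT replicate 1 (-0.39, adjusted p = 0.0375). One member also passed as lower without P21 cKO library 64.

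After scaling, 8 members were called lower in P21 cKO hearts, 4 of them subunits, against 5.34% of all genes lower and 4.11% higher. The median of the 36 subunits was -0.31, with 0.01 for all genes tested, and 29 of 36 had every P21 cKO library below every P21 WT library, which 11.3% of all genes had. On TPM as deposited 2 of 36 were separated in this direction and 4 in the other. The share of all genes is not given for that scale. Ndufs1 had the smallest p after scaling. Its scaled level was 332, 336 and 356 in P21 cKO hearts, against 414, 437, 433 and 418 in P21 WT hearts, without overlap (-0.34 ± 0.06, adjusted p = 0.00191). On TPM as deposited the same libraries stood at 287, 308 and 323 TPM in P21 cKO hearts and at 322, 329, 308 and 349 TPM in P21 WT hearts, and they overlapped.

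The other subunits that fell after scaling were Ndufv2, an iron-sulfur subunit beside Ndufv1 (-0.44, adjusted p = 0.0335), Ndufb8 (-0.40, adjusted p = 0.0438) and Ndufa9 (-0.35, adjusted p = 0.0300). The N module thus had 2 of 10, the Q module 1 of 6, the distal arm 1 of 11 and the proximal arm 0 of 9. The assembly factors Ndufaf5 (-0.56), Ndufaf1 (-0.50) and Ndufaf7 (-0.46) fell, with adjusted p of 0.0344, 0.0279 and 0.0292, as did the copy Ndufb4c (-0.31, adjusted p = 0.00860). The scaled level of Ndufaf7 was 16.0, 16.5 and 22.5 in P21 cKO hearts, against 25.5, 26.3, 25.5 and 23.7 in P21 WT hearts, without overlap. On TPM as deposited Ndufaf7 stood at 13.8, 15.1 and 20.5 TPM in P21 cKO hearts, against 19.8, 19.8, 18.2 and 19.8 TPM in P21 WT hearts. On that scale P21 cKO library 64 lay above the WT range. The scaled fit called 30 members lower and 1 higher once P1 WT replicate 3 was left out, against 7.73% and 5.75% of all genes. Of the 36 subunits 24 were lower there. This alternative was chosen after seeing the data.

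Ndufa4l2 was the only member higher in P21 cKO hearts on TPM as deposited. It stood at 30.3, 45.8 and 38.5 TPM in P21 cKO hearts, against 20.1, 18.9, 19.8 and 26.4 TPM in P21 WT hearts. All 3 P21 cKO libraries lay above all 4 P21 WT libraries, and the difference was 0.77 ± 0.17 (log2, adjusted p = 0.00703). After scaling the difference was 0.52 and did not pass (adjusted p = 0.0629). Its TPM in P21 cKO hearts overlapped with those of both P7 groups. Without P21 WT library 57 limma called 2 members higher.

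Markers of other cell types moved beside these results. Between P21 cKO and P21 WT hearts on TPM as deposited, 4 of 4 mural markers, 5 of 5 fibroblast markers and 4 of 5 endothelial markers were called higher. Of all genes 19.5% were called higher and 1.77% lower. The mural list summed to 342 to 366 TPM in P21 cKO and 206 to 293 TPM in P21 WT hearts, the fibroblast list to 577 to 685 TPM in P21 cKO and 380.0 to 495 TPM in P21 WT hearts, and the endothelial list to 392 to 453 TPM in P21 cKO and 253 to 352 TPM in P21 WT hearts. Cardiomyocyte markers, 0 of 6 called, summed to 34611 to 36779 TPM in P21 cKO and 33309 to 36667 TPM in P21 WT hearts, and macrophage markers, 0 of 5 called, to 95.6 to 129 TPM in P21 cKO and 102 to 155 TPM in P21 WT hearts. No marker of these 5 lists averaged under 1 TPM in any group. Skeletal muscle markers, 2 of 3 tested called lower, summed to 10.9 to 20.5 TPM in P21 cKO and 48.6 to 54.2 TPM in P21 WT hearts, without overlap. Most of that sum was Myl1, a myosin light chain, while Myh4, a fast skeletal myosin, stood at 0.02 TPM or less in every library. Red cell markers, 0 of 5 called, summed to 10702 to 20934 TPM in P21 cKO and 6225 to 16184 TPM in P21 WT hearts, with overlap. After scaling 2 of 4 mural, 2 of 5 fibroblast and 1 of 5 endothelial markers were higher, and 1 of 6 cardiomyocyte and 2 of 3 skeletal muscle markers were lower. On that scale 4.11% of all genes were called higher and 5.34% lower. The part of these markers in the results on Ndufa4l2 and on the subunits was not tested.

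At P7 no member passed the test between knockout and wild type. Limma called 0 of 47 members on either scale, against 0.0203% of all genes (3 genes, all higher), and 1 member had an unadjusted p under 0.05 on TPM as deposited. The 36 subunits had differences of -0.22 to 0.09 with a median of 0.00, and that of all genes tested was -0.02. Ndufc2 had the smallest p: it stood at 266, 281 and 292 TPM in P7 cKO hearts, against 324, 292, 377, 303 and 290.4 TPM in P7 WT hearts, with overlap (-0.22 ± 0.10, adjusted p = 1). Ndufa1 (0.09) and Ndufaf8 (0.12) had every P7 cKO library above every P7 WT library, which 1.26% of all genes had, and neither passed.

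The knockout effect at P21 was set against that at P7 in the same model. On TPM as deposited this difference of effects passed for Ndufa4l2 (0.81 ± 0.22, adjusted p = 0.0374) and Ndufc2 (0.48 ± 0.13, adjusted p = 0.0450), both higher, against 7.04% of all genes higher and 0.52% lower, where the median gene was at 0.24. Both calls were fragile: that of Ndufa4l2 was lost without any 1 of 12 libraries (adjusted p of 0.0531 to 0.101) and that of Ndufc2 without any 1 of 12 (adjusted p of 0.0510 to 0.107), among them every cKO library of P7. Ndufv3 passed as lower without P1 WT replicate 3 (-0.27, adjusted p = 0.0412). After scaling neither Ndufa4l2 nor Ndufc2 passed, and the 1 member called was Ndufs1, at -0.38 ± 0.07 (adjusted p = 0.0147), against 1.4% of all genes lower and 0.965% higher. Its scaled level was 332 to 356 in P21 cKO and 414 to 437 in P21 WT hearts, and 260 to 279 in P7 cKO and 248 to 287 in P7 WT hearts, so that the genotypes overlapped at P7 and not at P21.

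Ndufc2 lies on chr7:97400003-97407802 (mm10). Pold3, 2.67 Mb away, and P4ha3, 2.88 Mb away, are genes on the same chromosome whose levels separated the genotypes; they were chosen after their values were seen. P4ha3, a collagen prolyl hydroxylase, stood at 542 to 833 TPM in the 6 cKO libraries, against 8.74 TPM or less in the WT libraries. Pold3, a DNA polymerase subunit, stood at 98.9 to 149 TPM in cKO and 15.8 TPM or less in WT libraries. Ndufc2 stood at 292, 265 and 275 TPM in P21 cKO hearts, against 224, 199, 265 and 209 TPM in P21 WT hearts, where the groups overlapped narrowly at 265 TPM and the difference did not pass (0.26, adjusted p = 0.0897). Whether the position of Ndufc2 has a part in its values was not tested.

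**Figure D4:**
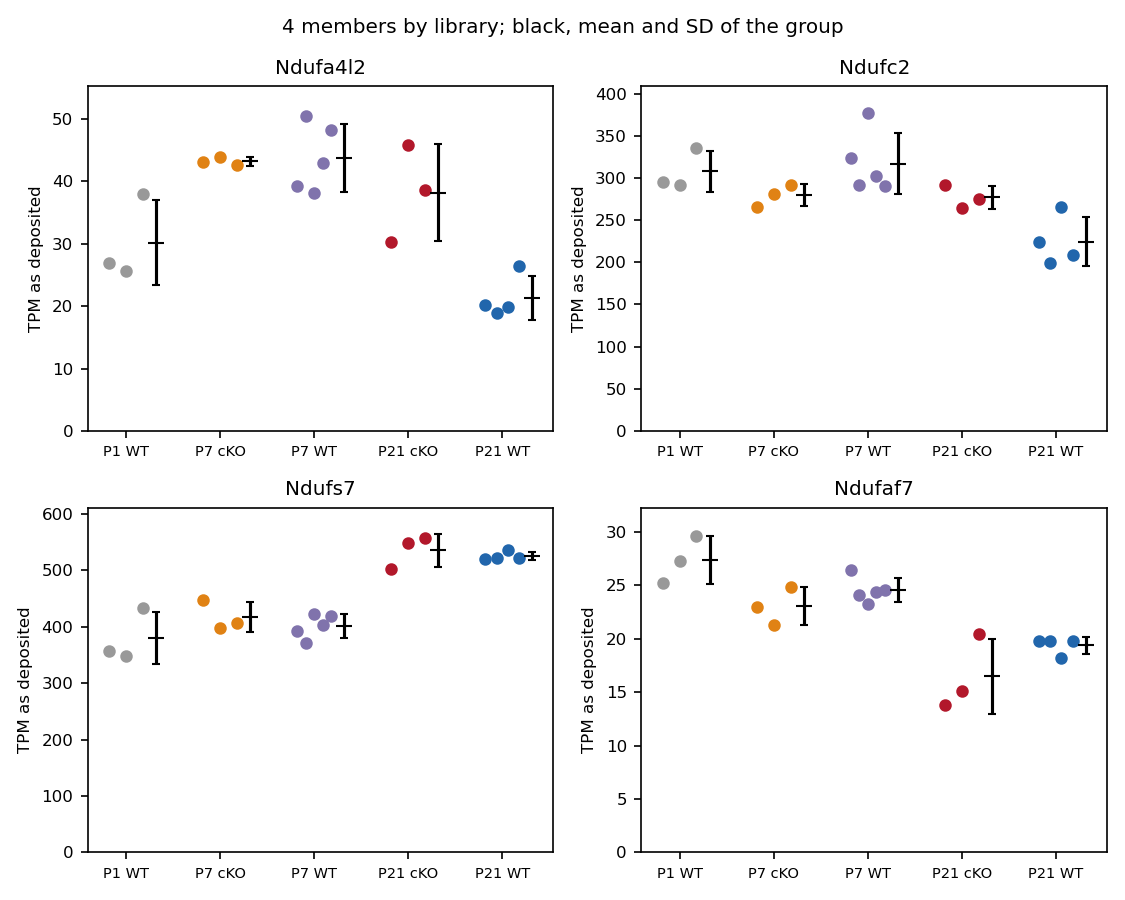
TPM of Ndufa4l2, Ndufc2, Ndufs7 and Ndufaf7 in each library (points) by group, with group mean and SD in black. Ndufa4l2 is at 30.3 to 45.8 TPM in P21 cKO and 18.9 to 26.4 TPM in P21 WT; Ndufs7 lies at 502 TPM or more in both P21 groups and at 446 TPM or less in both P7 groups.

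Within knockout hearts limma called 5 of 47 members higher and 1 lower at P21 than at P7 on TPM as deposited, against 9.36% and 39% of all genes. The count of higher members was thus near the share of all genes. Ndufs7 stood at 502, 548 and 557 TPM in P21 cKO hearts, against 446, 398 and 407 TPM in P7 cKO hearts, without overlap (0.36 ± 0.08, adjusted p = 0.00106). Ndufb4 (0.29), Ndufb3 (0.28), Ndufs8 (0.24) and Ndufa1 (0.23) rose, the first of them with the doubt over its copy. Ndufaf7 fell by 0.48 (adjusted p = 0.00230), at 13.8, 15.1 and 20.5 TPM in P21 cKO against 23.0, 21.3 and 24.9 TPM in P7 cKO hearts. Without P7 cKO 82 limma called 3 members higher, and Ndufb4 and Ndufs8 did not pass (adjusted p = 0.0534 and 0.0541). With P1 WT replicate 3 left out it called 9 higher and 5 lower, against 10.2% and 41.6% of all genes. With P1 WT replicate 1 or P21 cKO 59 left out it called 2 lower. Endothelial markers, 4 of 5 called lower, summed to 392 to 453 TPM in P21 cKO and 618 to 657 TPM in P7 cKO hearts, and macrophage markers, 3 of 5 called higher, to 95.6 to 129 TPM in P21 cKO and 49.8 to 63.98 TPM in P7 cKO hearts. Their part in these results was not tested.

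After scaling, 21 members rose and none fell between P7 and P21 in cKO hearts, against 20.4% and 19.6% of all genes. The Q module had 6 of 6, the N module 5 of 10, the distal arm 5 of 11 and the proximal arm 2 of 9, with a subunit median of 0.33. In WT hearts the same scaled median was 0.66. These comparisons share no library with each other, and the difference between them is that of the knockout effects at P21 and P7, which on the scaled values had a subunit median of -0.32 and passed for Ndufs1 alone.

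In the first postnatal week few members passed. On TPM as deposited limma called 4 members higher in P7 WT than in P1 WT hearts and 0 lower, against 13.8% and 14.7% of all genes. Ndufa4 stood at 1643, 1538, 1613, 1597 and 1609.97 TPM in P7 WT hearts, against 1143, 1155 and 1519 TPM in P1 WT hearts, without overlap (0.33 ± 0.08, adjusted p = 0.00780). Ndufa4l2 (0.49, adjusted p = 0.0411), Ndufaf4, which acts early on the Q module (0.40, adjusted p = 0.0240), and Ndufb10 of the distal arm (0.36, adjusted p = 0.0409) also rose. No subunit was lower by limma, with 4 of 36 at an unadjusted p under 0.05, and the subunit median was -0.01, where that of all genes was -0.0011. Ndufv1 (-0.13) and Ndufaf8 (-0.13) did not pass. Mural markers summed to 240 to 373 TPM in P7 WT and 137 to 204 TPM in P1 WT hearts. Endothelial markers summed to 569 to 690.2 TPM in P7 WT and 451 to 495 TPM in P1 WT hearts. Fibroblast and macrophage sums were also higher in every P7 WT library, skeletal muscle sums were lower, and cardiomyocyte and red cell sums overlapped. Their part in these results was not tested.

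Apart from that of Ndufa4, which was kept without any single library, these calls depended on single libraries. Limma called 16 members higher when P1 WT replicate 3 was left out, against 12% of all genes. The subunit median was then 0.12, where that of all genes was -0.04. Leaving out P1 WT replicate 1 or 2 or P7 WT replicate 1 it called 1, and without P21 WT replicate 2 it called 2. The call of Ndufaf4 was lost without P1 WT replicate 1 or 2 or P7 WT replicate 1 (adjusted p of 0.0744 to 0.114), that of Ndufb10 without any 1 of 8 libraries (adjusted p up to 0.158) and that of Ndufa4l2 without any 1 of 12 (adjusted p up to 0.200). After scaling Ndufa4 and Ndufa4l2 passed, against 15.4% of all genes higher and 15.5% lower.

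Over the whole interval in WT hearts, limma called 11 members higher and 3 lower at P21 than at P1 on TPM as deposited, against 11% and 57.1% of all genes. Ndufa5 had the largest rise. It stood at 735, 751, 822 and 729 TPM in P21 WT hearts, against 449, 489 and 696 TPM in P1 WT hearts, without overlap (0.49 ± 0.11, adjusted p = 0.00134). Ndufb10 rose by 0.46, Ndufs7 by 0.44, Ndufa4 by 0.43, Ndufa3 and Ndufb3 by 0.39 each, Ndufaf1 by 0.38 and Ndufaf4 by 0.36. Ndufc2 fell by 0.51, Ndufa4l2 by 0.51 and Ndufaf7 by 0.44, and all 3 turned to slightly positive values after scaling (0.07, 0.05 and 0.12). On the scaled values 42 members rose and none fell, against 28.5% and 28.6% of all genes, with a subunit median of 0.68. P21 WT libraries serve in this comparison and in that with P7 WT, and P1 WT libraries serve in this and in that of the first week. Mural markers summed to 206 to 293 TPM in P21 WT and 137 to 204 TPM in P1 WT hearts. Macrophage sums were also higher in every P21 WT library and endothelial and fibroblast sums lower, while cardiomyocyte, red cell and skeletal muscle sums overlapped. The part of these lists in the results was not tested.

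Leaving out 1 library moved these counts too. With P1 WT replicate 3 left out, 26 members were called higher and 2 lower, against 10.7% and 58.5% of all genes. With replicate 1 left out the counts were 7 and 5, and with replicate 2 left out 6 were lower. Leaving out P21 WT replicate 3 gave 2 lower. The rise of Ndufa3 was lost without P1 WT replicate 1 or 2 or P21 WT replicate 3 (adjusted p of 0.133 to 0.158), and that of Ndufaf4 without P1 WT replicate 1 or 2 or P21 WT replicate 2 (adjusted p of 0.0525 to 0.0961). The fall of Ndufa4l2 was lost without P1 WT replicate 3 or P21 WT replicate 3 (adjusted p = 0.0863 and 0.0665).

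The 7 core subunits encoded by mitochondrial DNA form the proton channels and were read from the same table. Between P7 and P21 in WT hearts 6 of 7 rose on TPM as deposited, against 8.1% of all genes, with a median of 0.73 where that of all genes was -0.47. In P21 cKO against P21 WT hearts mt-Nd4 (-0.39 ± 0.08, adjusted p = 0.00452) and mt-Nd2 (-0.34 ± 0.10, adjusted p = 0.0269) fell. mt-Nd4 stood at 8538, 8433 and 9079 TPM in P21 cKO hearts, against 12099, 12261, 12107 and 10779.9 TPM in P21 WT hearts, and the groups did not overlap. After scaling mt-Nd1 (-0.37) and mt-Nd5 (-0.41) fell as well. At P7 none of the 7 passed between cKO and WT hearts by limma, with 1 at an unadjusted p under 0.05.

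Assembly factors with other names were mixed in direction on TPM as deposited. Of 11 such genes, limma called 2 higher and 4 lower in P21 WT than in P7 WT hearts on TPM as deposited, against 8.1% and 64.4% of all genes, and 10 of the 11 lay above the median gene. Acad9, a partner of Ndufaf1, fell by 0.53 and Dmac1, which serves the distal arm, by 0.46, where the median gene stood at -0.47. Ecsit, another partner of Ndufaf1, rose by 0.13 and Tmem70 by 0.18. After scaling all 11 had positive values in this comparison, with a median of 0.46. Limma called 9 of them higher and 0 lower there, against 27.6% and 26.8% of all genes. In P21 cKO against P21 WT hearts none of the 11 passed on TPM as deposited by limma, with 0 at an unadjusted p under 0.05, and Nubpl, which delivers iron-sulfur clusters (-0.44), Ecsit (-0.36) and Tmem70 (-0.30) fell after scaling. The other respiratory complexes give the frame for the scaled values of P21 cKO against P21 WT: the median was -0.27 for 4 complex II genes, -0.41 for 9 of complex III, -0.28 for 12 of complex IV and -0.30 for 15 of complex V, beside -0.31 for the 36 complex I subunits. On TPM as deposited limma called 3 of the 9 complex III genes lower and 0 of the complex II, IV and V genes, 0 of which had an unadjusted p under 0.05.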

How the data were processed

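The authors deposited 1 TPM value per gene and library, and no counts were used. TopHat2 2.0.14, Cufflinks 2.2.1 and the mm10 build are named in the submitters' processing notes. Which tool made the TPM, and with which annotation, is not given in the sources used here. RNA iso Plus served for extraction and a SMARTer mRNA-Seq kit for the libraries, per the labels. The members and gene lists were chosen with earlier results of these data known.

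Of 19 libraries 18 were fitted, and 2 per-sample columns of no sample here and 7 columns of the authors' means were not used. The 14812 of 56066 genes that reached 1 TPM in 3 or more libraries were tested as log2(TPM + 1) by limma 3.58.1 in R 4.3.3 (linear models, empirical Bayes with a trend); version 1.17.8 of data.table was used. The model held group and title style, since WT titles are either lettered or plain numbers, all P1 titles are lettered and all cKO titles plain. Adjustment followed Benjamini and Hochberg in each of 7 comparisons, at 0.05. For median-ratio scaling a library was divided by the median of its ratios to the geometric mean of each gene, over tested genes above 0 in every library, and factors ranged between 0.712 and 1.232. Members named with values were up to 8 passing per direction by size, or the 3 of smallest p where none passed, and a few fixed names. Ndufs3, Ndufb9, Ndufa3 and scaled calls outside this rule were named after their values were seen. Copies were aligned to GENCODE M21 transcripts with Biopython 1.88, and pandas 2.3.3 read the tables. The values of 1 member, which entered all fits, counts and sums, are not reported here. The fitting step was tested on simulated data. Alternatives were scaling, a pseudocount of 0.1, a filter of 5 TPM or none, removal of mitochondrial and haemoglobin genes, no title style, 1 title style alone, a replicate block and each library left out.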

Additional observations from a re-analysis of the deposited data

Results flagged for a closer look

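In groups of 4 or 5 libraries, 94 pairs of a member and a group were screened for a library far from the rest, and 10 stood out; chance gives about 1 in 20 groups. In P7 WT, library 3 was the low one for Ndufa3 (305.7 TPM, the others 365 to 374), Ndufb3 (189.9 TPM, the others 212 to 221), Ndufs5 (463 TPM, the others 529 to 541) and Ndufv2 (365 TPM, the others 420.4 to 435). In P21 WT, library 57 was the high one for Ndufa13 (236 TPM, the others 194 to 201), Ndufa2 (463 TPM, the others 378 to 389), Ndufb7 (667 TPM, the others 592 to 602) and Ndufs7 (536 TPM, the others 520.03 to 522), and the low one for Ndufaf7 (18.2 TPM, the others 19.8). Ndufa4l2 in P21 WT library 60 stood at 26.4 TPM, the others at 18.9 to 20.1. Of the 10, 9 fell in those 2 libraries, P7 WT 3 and P21 WT 57.

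The knockout effect differed between P21 and P7 on TPM as deposited, by the test of that difference, for Ndufa4l2 (0.81 on the log2 scale) and Ndufc2 (0.48). These calls stand against 7.04% of all genes called higher, with the median gene at 0.24. Each was lost without any 1 of 12 libraries, and neither gene passed after scaling.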

How the results depend on the processing

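Median-ratio scaling gave counts of members called higher and lower of 0 and 8 for P21 cKO against P21 WT, 2 higher for P7 WT against P1 WT, 42 and 1 for P21 WT against P7 WT, 42 and 0 for P21 WT against P1 WT, 21 and 0 for P21 cKO against P7 cKO, and 0 and 1 for the difference of knockout effects. With P1 WT replicate 3 also left out (chosen after seeing the data) these were 30 lower, 18 higher, 44 and 1, 43 and 0, 33 and 0, and 0 and 10. Shares of all genes in that order were 7.73% lower, 15.5% higher, 28.6% and 28%, 28.4% and 28.1%, 22.2% and 21.3%, and 1.69% and 3.05%. Signs turned under scaling for Ndufc2 (0.0917), Ndufaf6 (0.17), Ndufaf7 (0.23) and Ndufaf2 (0.25) in P21 WT against P7 WT and for Ndufc2 (0.0703), Ndufa4l2 (0.0534) and Ndufaf7 (0.12) in P21 WT against P1 WT. With replicate 3 left out as well the values were 0.0906, 0.17, 0.22 and 0.25, of which those of Ndufaf7 and Ndufaf2 passed, then 0.19, 0.27 and 0.23, and Ndufv1 turned to 0.0070 in P7 WT against P1 WT. Without P7 cKO 69, Ndufaf3 was at -0.0039 in P7 cKO against P7 WT. The cause of these turns beyond the shift in the median of all genes was not tested. Over all alternatives the named members kept their direction and call 1272 times, lost the call 118 times, gained it 11 times and turned 16 times.

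Without mitochondrial and haemoglobin genes the counts were 8 higher for P7 WT against P1 WT, 22 and 3 for P21 WT against P7 WT, 26 higher for P21 WT against P1 WT, 8 higher for P21 cKO against P7 cKO and 0 for the difference of effects. Without the title style they were 2 higher for P21 cKO against P21 WT, 8 for P7 WT against P1 WT and 5 lower for P21 WT against P1 WT. With no filter they were 2 higher for P7 WT against P1 WT and 0 for the difference of effects. Plain-number libraries alone, which hold no P1, gave 1 lower for P21 cKO against P21 WT, 2 lower for P21 WT against P7 WT, 9 and 5 for P21 cKO against P7 cKO and 0 for the difference of effects. Lettered libraries alone (chosen after seeing the data), which hold no cKO, gave 0 higher for P7 WT against P1 WT, 1 and 3 for P21 WT against P7 WT and 7 higher for P21 WT against P1 WT. Shares of all genes follow in the order and direction of these counts. They were 15.7%, 9.92% and 57.3%, 13.9%, 10.4%, and 3.75% higher without mitochondrial and haemoglobin genes. Plain-number libraries gave 1.28%, 53.4%, 9.98% and 41%, and 0.605% higher. Lettered libraries gave 9.36%, 4.6% and 58.8%, and 8.9%. For no title style and no filter the shares are not given here. The causes were not tested.

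A replicate block on the title numbers gave 2 higher for P7 WT against P1 WT and 1 for the difference of effects. These stood against 13.1% and 4.65% of all genes higher, and the other counts stayed within 1.5 times. Same-numbered libraries correlated at -0.0951 to 0.0657 in their deviations from the group mean. The lettered P7 WT and P21 WT groups hold 2 libraries each, whose deviations mirror each other. This check therefore cannot decide whether the numbers pair the samples.

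Leaving out each library gave 1 to 2 higher and 0 to 1 lower for P21 cKO against P21 WT (1 lower without P1 WT 3, P21 cKO 64 or P7 WT 1), 0 and 0 for P7 cKO against P7 WT, 1 to 16 higher and 0 lower for P7 WT against P1 WT, 6 to 17 and 4 to 6 for P21 WT against P7 WT, 7 to 26 and 2 to 6 for P21 WT against P1 WT, 3 to 9 and 1 to 5 for P21 cKO against P7 cKO, and 0 to 2 and 0 to 1 for the difference of effects. Of these counts, the 17 higher for P21 WT against P7 WT came without P1 WT 3, where 8.47% of all genes were higher. For left-out libraries other than P1 WT 3 the shares of all genes are not given here. Ndufa4l2 in P21 cKO against P21 WT passed in 26 of 27 alternatives (0.52 to 0.93), and Ndufs7 and Ndufa4l2 in P21 WT against P7 WT in 28 of 28. Depth is unknown, which limits what low members such as the assembly factors can show.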

Other observations

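Library 63 at P21, whose title and genotype label disagree, held Ndufa1 at 725 TPM, Ndufa4l2 at 28.8 TPM, Ndufc2 at 232 TPM, Ndufs7 at 498 TPM, Ndufs1 at 332 TPM and Ndufaf7 at 18.8 TPM. P4ha3 stood at 0.05 TPM and Pold3 at 5.29 TPM in it, beside 542 to 833 TPM and 98.9 to 149 TPM in the 6 cKO libraries. In P21 WT libraries P4ha3 stood at 0.07 to 0.3 TPM and Pold3 at 4.58 to 7.5 TPM. Library 63 entered no comparison.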
